A study of Homo sapiens with 60 samples.

Results

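The comparison described here asks what an ethanol extract of Astragali Radix, the dried root of an Astragalus plant used in East Asian medicine, did to gene expression in SW1783 cells, a human astrocytoma line, at its medium dose of 44 µg/mL for 24 h. It rests on 6 of the 60 libraries of the series, picked by their labels: 3 of Astragali Radix medium dose and 3 of vehicle. Each gene was also set against the 15 medium-dose libraries of 5 other ethanol extracts, 3 libraries each at 100 µg/mL. These were a bark, Cinnamomi Cortex, and the herbal formulas Sagunja-tang, Samul-tang and Palmul-tang, along with Sibjeondaebo-tang. Palmul-tang is by recipe the union of the Sagunja-tang and the Samul-tang herbs. Sibjeondaebo-tang is Palmul-tang plus both Astragali Radix and Cinnamomi Cortex. The other extracts are therefore not free of Astragali Radix, and their medium dose is not the same as that of Astragali Radix, whose doses were set from its IC20 under the rule of the series. The vehicle was DMSO, labelled 0.1% on the samples and 2% in the series text, and the labels do not say whether the extract cultures held the same amount. Vehicle libraries carry a sample code of their own that no extract library shares, so against vehicle the extract and the code cannot be told apart. Astragali Radix and Cinnamomi Cortex libraries share a code. Sagunja-tang and Samul-tang libraries share another, and Palmul-tang and Sibjeondaebo-tang libraries yet another. Against these formulas, too, the extract and the code cannot be told apart. Nothing in the labels says whether the 3 libraries of a group came from separate cultures, so the p-values measure the spread between these libraries, which may be technical.

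Library totals were 25157192 to 32802552 counts for Astragali Radix medium, 19793387 to 32898920 for the other extracts and 24212214 to 26167537 for vehicle. The line lacked the defining markers of mature astrocytes. GFAP summed to 6 counts over the 3 Astragali Radix libraries and 9 over the 3 vehicle libraries, S100B to 5 and 7, ALDH1L1 to 3 and 3, and AQP4 to 0 in both groups. VIM, CD44, SOX9 and SLC1A3, found in glioma lines as well as in astrocytes, were expressed in every library. Of 12 markers of epithelial, endothelial, blood, nerve, oligodendrocyte and muscle cells, 8 were tested, and MBP was called higher and CD68 lower against vehicle. Over all genes tested, 17.9% were called higher and 18.4% lower. The summed level of the 8 tested markers was 179.9 to 206 library-scaled counts (CPM) in Astragali Radix medium, 179.6 to 214 in the other extracts and 213 to 231 in vehicle. EPCAM (5 counts in Astragali Radix medium, 2 in vehicle), CDH1 (2 and 4), CDH5 (3 and 1) and DES (0 and 3) were at or near 0. Mitochondrially encoded genes took 4.97% to 5.03% of counts in Astragali Radix medium, 5.85% to 6.83% in the other extracts and 7.55% to 8.04% in vehicle. The part of that shift in the other results was not tested, apart from the fit on total counts given with the processing alternatives.

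As background, NRF2 (gene NFE2L2) is a transcription factor that KEAP1 binds and sends for degradation. Electrophiles and oxidants modify KEAP1, NRF2 then builds up and, with a small MAF partner, binds antioxidant response elements near genes for heme breakdown, iron storage, glutathione, thioredoxin and NADPH. Metallothioneins are small cysteine-rich proteins that hold zinc and copper, and the zinc-sensing factor MTF1 turns on their genes through metal response elements. In astrocytes, NRF2 targets are known for supplying glutathione precursors to neurons, and metallothioneins for buffering zinc.

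The promoters of 4 genes that the results turn on are printed because they hold the letters of these elements. GCLM and TXNRD1 were higher in Astragali Radix medium than in vehicle, and MT2A and MT1X were lower. Each is a RefSeq window on GRCh38.p14 of 300 bases, from 250 bases before the gene's start to 50 after it, read along the gene's strand. In the GCLM and TXNRD1 windows, capitals mark matches to the core TGACNNNGC of the antioxidant response element. In the MT2A and MT1X windows, capitals mark the metal response element core TGCACNC or TGCGCNC, and no 2 matches overlap. Both strands were searched.
GCLM, chr1:93909381-93909680, minus strand: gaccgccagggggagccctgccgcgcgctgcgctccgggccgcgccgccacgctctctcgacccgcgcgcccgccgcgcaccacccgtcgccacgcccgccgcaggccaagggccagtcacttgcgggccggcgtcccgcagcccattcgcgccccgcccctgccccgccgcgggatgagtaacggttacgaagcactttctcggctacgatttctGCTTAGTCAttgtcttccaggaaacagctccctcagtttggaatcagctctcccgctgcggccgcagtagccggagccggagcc
TXNRD1, chr12:104215529-104215828, plus strand: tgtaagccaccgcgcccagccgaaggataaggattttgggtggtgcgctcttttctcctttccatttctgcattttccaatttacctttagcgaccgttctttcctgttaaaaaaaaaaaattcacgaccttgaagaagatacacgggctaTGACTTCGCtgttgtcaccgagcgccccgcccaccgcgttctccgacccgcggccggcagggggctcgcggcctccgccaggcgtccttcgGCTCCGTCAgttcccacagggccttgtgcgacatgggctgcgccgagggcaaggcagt
MT2A, chr16:56608334-56608633, plus strand: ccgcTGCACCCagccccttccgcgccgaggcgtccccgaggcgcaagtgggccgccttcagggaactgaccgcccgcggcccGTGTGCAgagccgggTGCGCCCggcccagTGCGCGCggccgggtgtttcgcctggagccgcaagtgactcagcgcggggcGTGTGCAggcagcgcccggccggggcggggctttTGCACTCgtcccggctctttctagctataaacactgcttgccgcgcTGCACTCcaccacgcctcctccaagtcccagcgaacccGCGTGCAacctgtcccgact
MT1X, chr16:56682220-56682519, plus strand: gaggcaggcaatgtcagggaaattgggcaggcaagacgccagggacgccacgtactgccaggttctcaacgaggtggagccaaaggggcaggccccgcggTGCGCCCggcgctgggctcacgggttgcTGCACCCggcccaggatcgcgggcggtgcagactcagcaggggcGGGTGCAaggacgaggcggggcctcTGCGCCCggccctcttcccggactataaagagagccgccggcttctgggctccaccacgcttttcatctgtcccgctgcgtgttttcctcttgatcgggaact
GCLM held 1 match, at -34 from the start, and TXNRD1 held 2, at -99 and -8. MT2A held 8 matches and MT1X held 4. Each window also held 1 match to the other core, which is not marked. It was the metal core in GCLM and TXNRD1 and the antioxidant core in MT2A and MT1X, so the cores do not separate the genes that rose from those that fell. Of 27305 promoters in the RefSeq table, 13.6% held the antioxidant core and 29.3% either form of the metal core, and among the 11768 promoters of tested genes the shares were 15.1% and 38.4%. A RefSeq promoter was found for 39 of the 53 members of the 5 gene lists on heme and iron, glutathione, thioredoxin, NADPH and quinone reduction, and 10 of them (25.6%) held the antioxidant core: PGD, GCLM, ME1, SLC3A2, GSTP1, TXNRD1, ABCC4, FECH, CBR1 and PIR. Of 7 promoters found for the 12 metallothionein and zinc genes, 4 (57.1%) held the metal core: SLC30A1, MT2A, MT1H and MT1X. A match is only a run of letters in this window.

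Astragali Radix medium differed from vehicle at many genes by small amounts. Of 16927 genes tested with edgeR's quasi-likelihood test at a Benjamini-Hochberg adjusted p below 0.05, 3030 (17.9%) were called higher and 3116 (18.4%) lower than in vehicle, 36.3% in all. The median size of a called change was 0.25 on the log2 scale, and 87 genes (0.514%) were called at least 2-fold higher and 174 (1.03%) at least 2-fold lower. At a minimum of 1.5-fold against vehicle, 263 (1.55%) were higher and 530 (3.13%) lower, of which 125 (0.738% of genes tested) and 329 (1.94%) were also called that way against the other extracts. The mean of the 5 other extracts also differed from vehicle at 6505 genes (38.4%), 3172 higher (18.7%) and 3333 lower (19.7%). Against that mean, Astragali Radix medium was called higher at 2973 genes (17.6%) and lower at 2787 (16.5%), 34.0% in all. Genes called in the same direction against vehicle and against the mean of the other extracts numbered 1493 higher (8.82%) and 1419 lower (8.38%), and "in both comparisons" below means these. Called against vehicle and against each of the 5 extracts singly were 642 higher (3.79%) and 679 lower (4.01%), 7.80% in all. All 3 Astragali Radix libraries lay above all 3 vehicle libraries at 3953 genes (23.4%) and below them at 4062 (24.0%). They lay above every vehicle and other-extract library at 939 genes (5.55%) and below every one at 875 (5.17%).

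Genes of heme breakdown and iron storage rose, and HMOX1 changed more than any other named gene. HMOX1, heme oxygenase, which splits heme into biliverdin, carbon monoxide and iron, lies on chromosome 22 at 35380361 to 35394214 (GRCh38). It had 1039, 962 and 829 CPM in the 3 Astragali Radix medium libraries, against 83.9, 81.6 and 80.6 CPM in the vehicle libraries. The 15 libraries of the other extracts lay between 73.6 and 128 CPM with a median of 92.3. The lowest Astragali Radix library therefore stood far above every other library. HMOX1 averaged 943 ± 107 CPM in Astragali Radix medium and 82.0 ± 1.72 CPM in vehicle (SD, n = 3 each), an 11.5-fold rise (log2 3.52 ± 0.06 SE, edgeR adjusted p = 4.5e-24). Against the mean of the other extracts it was 9.79-fold higher (log2 3.29 ± 0.03, adjusted p = 5.5e-29).

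The ferritin chains that store iron rose with it. FTH1, the heavy chain, had 3213, 3139 and 2829 CPM in Astragali Radix medium, against 1265, 1259 and 1218 CPM in vehicle, and the other extracts reached at most 1668. FTL, the light chain, had 2736, 2625 and 2226 CPM in Astragali Radix medium, against 1184, 1066 and 1162 CPM in vehicle. The groups did not overlap in either gene, and the log2 changes were 1.29 ± 0.05 (FTH1, adjusted p = 4.3e-16) and 1.15 ± 0.06 (FTL, adjusted p = 5.5e-13). Both ferritin genes have processed copies elsewhere in the genome that can share reads. PIR, an iron-binding nuclear protein, rose by 0.79 ± 0.08 on the log2 scale. BLVRA (0.41) and BLVRB (0.35), which reduce biliverdin, and FECH (0.30), which inserts iron into protoporphyrin to make heme, rose less. In all, 7 of the 7 members tested of the heme and iron list were called higher against vehicle and in both comparisons, with a median log2 change of 0.79 beside -0.01 over all genes. The iron exporter SLC40A1 had 0 counts in Astragali Radix medium and 1 in vehicle and was not tested.

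**Figure D1:**
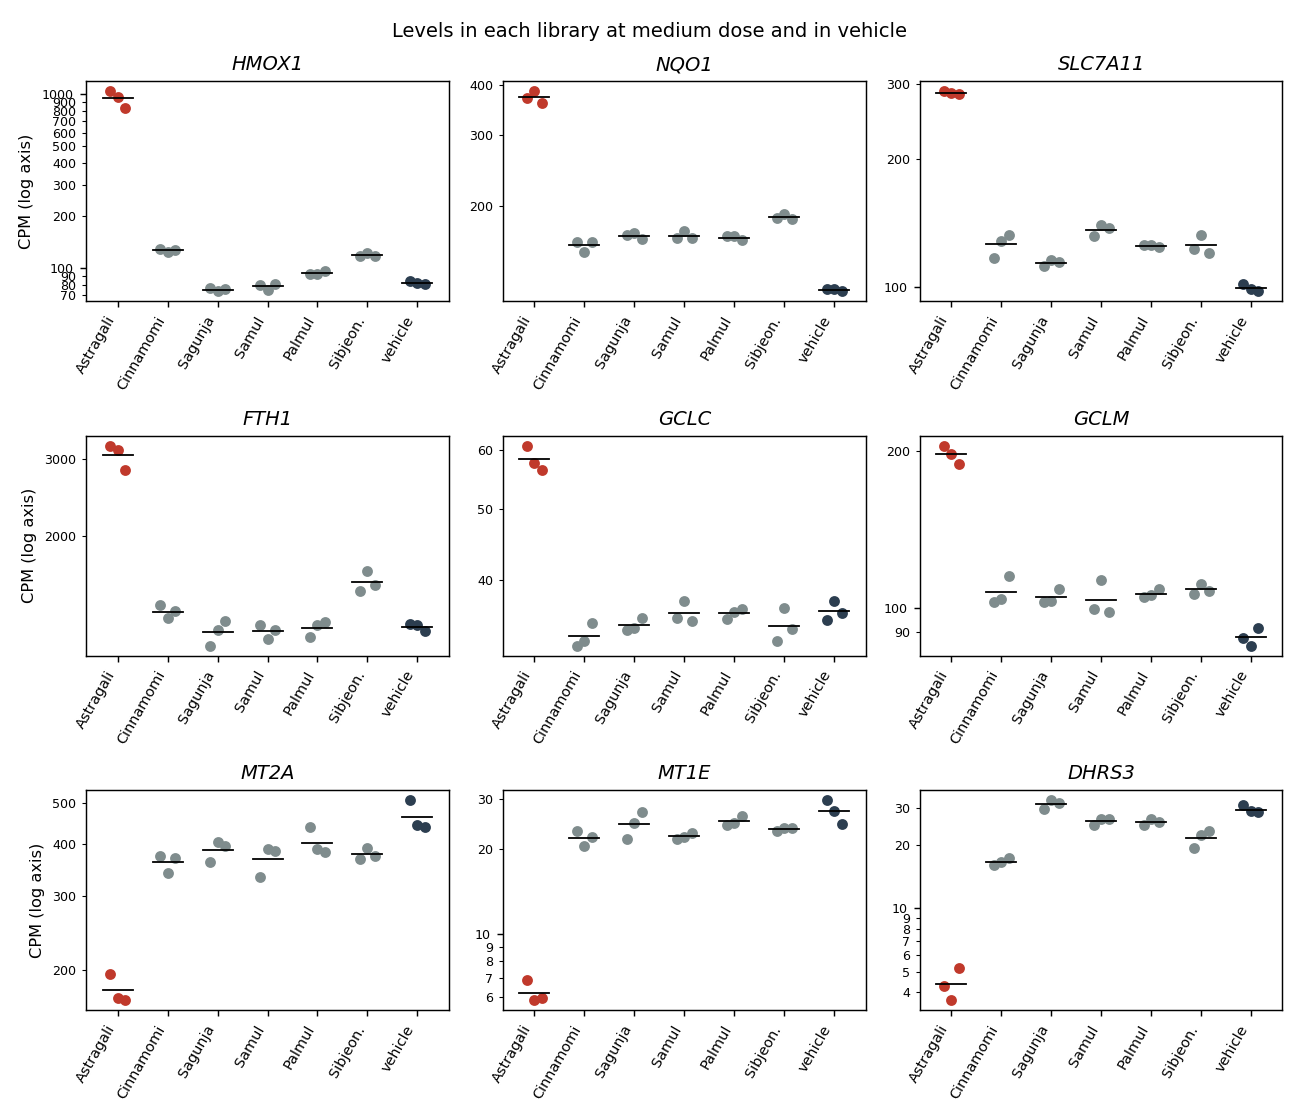
Library-scaled counts (CPM, log axis) of 9 genes in each library: Astragali Radix medium (red), the 5 other extracts at medium dose (grey) and vehicle (dark), with a bar at each group's mean. The 3 Astragali Radix libraries stand above all others for HMOX1, NQO1, SLC7A11, FTH1, GCLC and GCLM and below all others for MT2A, MT1E and DHRS3.

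Genes of cystine import and glutathione synthesis rose. SLC7A11, the cystine importer, had 288, 286 and 284 CPM in Astragali Radix medium, against 101, 98.8 and 97.8 CPM in vehicle, and the other extracts ranged over 112 to 140. That was a 2.88-fold rise (log2 1.53 ± 0.04, adjusted p = 1.5e-19). GCLM, the modifier subunit of glutamate-cysteine ligase, had 205, 198 and 189 CPM in Astragali Radix medium, against 87.3, 84.6 and 91.4 CPM in vehicle (log2 1.17 ± 0.05, adjusted p = 3.0e-15). Its catalytic partner GCLC had 60.9, 57.7 and 56.4 CPM in Astragali Radix medium, against 35.4, 37.5 and 36.1 CPM in vehicle. The other extracts had 32.6 to 37.5 CPM of GCLC, which overlaps vehicle and lies below every Astragali Radix library. GCLC rose by 0.68 ± 0.04 on the log2 scale against vehicle (adjusted p = 4.9e-12) and by 0.74 against the other extracts. SLC3A2, which carries SLC7A11 to the membrane, rose by 0.79, GSR, glutathione reductase, by 0.53, and MGST1, a membrane glutathione transferase, by 0.57. GSS, the next enzyme of the synthesis, was 0.20 higher against vehicle and was not called against the other extracts (log2 0.04, adjusted p = 0.25).

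The glutathione peroxidases went the other way. GPX1 had 154, 147 and 142 CPM in Astragali Radix medium, against 220, 212 and 215 CPM in vehicle, a fall of 0.55 ± 0.04 on the log2 scale (adjusted p = 7.0e-10). GPX4, which reduces lipid peroxides, fell by 0.30. Of 17 members tested, 11 were called higher and 2 lower against vehicle, 8 and 2 in both comparisons, with a median log2 change of 0.23. Not called against vehicle were CHAC2 (0.22), ABCC1 (0.02), GSTP1 (0.02) and GGT5 (-0.08).

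In the thioredoxin system 4 genes rose. TXNRD1, thioredoxin reductase, had 531, 541 and 527 CPM in Astragali Radix medium, against 280, 285 and 285 CPM in vehicle (log2 0.91 ± 0.04, adjusted p = 9.4e-16). SRXN1, which repairs over-oxidised peroxiredoxins, had 200.3, 209 and 183 CPM in Astragali Radix medium, against 98.4, 94.5 and 97.6 CPM in vehicle (log2 1.03 ± 0.04, adjusted p = 3.0e-15). In neither gene did an extract library reach the Astragali Radix level. TXN rose by 0.77 and PRDX1 by 0.66, so 4 of 8 thioredoxin genes were called higher and 0 lower, in both comparisons, with a median of 0.39. Without Astragali Radix medium replicate 3, 4 were called higher and 1 lower against vehicle. SESN2 (0.11), PRDX6 (0.07), TXNRD2 (0.07) and TXNIP (-0.22) were not called against vehicle.

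Among the suppliers of NADPH, which both systems need, 6 of 7 were called higher against vehicle and 5 in both comparisons. ME1, malic enzyme, rose by 0.85 on the log2 scale, and PGD (0.52), TALDO1 (0.38) and TKT (0.28), all of the pentose phosphate pathway, rose less. TKT, transketolase, had 667, 638 and 619.9 CPM in Astragali Radix medium, against 542, 518 and 528 CPM in vehicle. For TKT the mean of the other extracts was lower than vehicle (log2 -0.11), whereas Astragali Radix medium was higher. IDH1 did not pass against vehicle (-0.06, adjusted p = 0.33).

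Reductases of quinones and carbonyls followed. NQO1, which reduces quinones to hydroquinones, had 372, 387 and 362 CPM in Astragali Radix medium, against 125, 124 and 123 CPM in vehicle, and 153 to 191 in the other extracts. It was 3.02-fold higher than vehicle (log2 1.59 ± 0.03, adjusted p = 5.0e-22) and 2.20-fold higher than the other extracts. The other extracts' mean was itself above vehicle (log2 0.46), so the 3 groups kept a clear order without overlap. AKR1C1, an aldo-keto reductase, had 63.8, 65.6 and 58.1 CPM in Astragali Radix medium, against 16.1, 16.3 and 18.8 CPM in vehicle, a 3.66-fold rise (log2 1.87 ± 0.07, adjusted p = 4.7e-16). AKR1C3 (1.32), AKR1B10 (1.27) and AKR1C2 (0.95) rose too. The AKR1C genes are close paralogs whose reads RSEM shares out by estimate, so the split between them is uncertain. ALDH3A2, which oxidises fatty aldehydes, rose by 0.73 and AKR1B1, aldose reductase, by 0.68. Of 13 members 12 were called higher and 0 lower against vehicle, 11 in both comparisons, and the list's median was 0.68.

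Over the 5 redox lists, 40 of 52 members tested were called higher and 2 lower (GPX1 and GPX4) against vehicle, 35 and 2 in both comparisons, and 29 were higher than vehicle and than each of the 5 extracts. Their median log2 change was 0.38. Over all genes tested, 17.9% were called higher and 18.4% lower against vehicle, and 8.82% and 8.38% in both comparisons. The share higher than vehicle and than each of the 5 extracts was 3.79%.

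The regulators of the pathway moved unevenly. NFE2L2, the NRF2 transcript itself, had 60.7, 71.7 and 56.4 CPM in Astragali Radix medium, against 80.4, 78.2 and 74.3 CPM in vehicle, a fall of 0.31 ± 0.06 on the log2 scale (adjusted p = 2.3e-04). KEAP1 rose by 0.27 and BACH1, a repressor that competes for the same elements, by 0.47. SQSTM1, an autophagy receptor that binds KEAP1, had 1018, 984 and 932 CPM in Astragali Radix medium, against 516, 520 and 517 CPM in vehicle (log2 0.92 ± 0.03, adjusted p = 6.4e-17). OSGIN1, an oxidative-stress growth inhibitor, rose by 1.00. The small MAF partners MAFG (0.23) and MAFK (0.21) rose, while MAFF fell by 0.28 against vehicle and was 0.42 higher than in the other extracts. Of 9 regulators, 6 were called higher and 3 lower against vehicle, and 6 and 1 in both comparisons. The counts were 6 and 2 on total counts, and 5 and 1 with all 57 libraries in the fit.

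Most subunits of the proteasome, which degrades ubiquitin-tagged proteins, rose by small amounts. PSMD14, the deubiquitinating subunit, had 95.1, 95.2 and 92.8 CPM in Astragali Radix medium, against 70.5, 77.2 and 70.3 CPM in vehicle (log2 0.38 ± 0.04, adjusted p = 1.1e-07). PSMA5 (0.45), PSMD13 (0.36) and PSMB1 (0.33) rose by like amounts. Of 30 subunits, 23 were called higher and 0 lower against vehicle, 20 in both comparisons, with a median of 0.21. With all 57 replicated libraries in the fit, 14 were called higher.

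**Figure D2:**
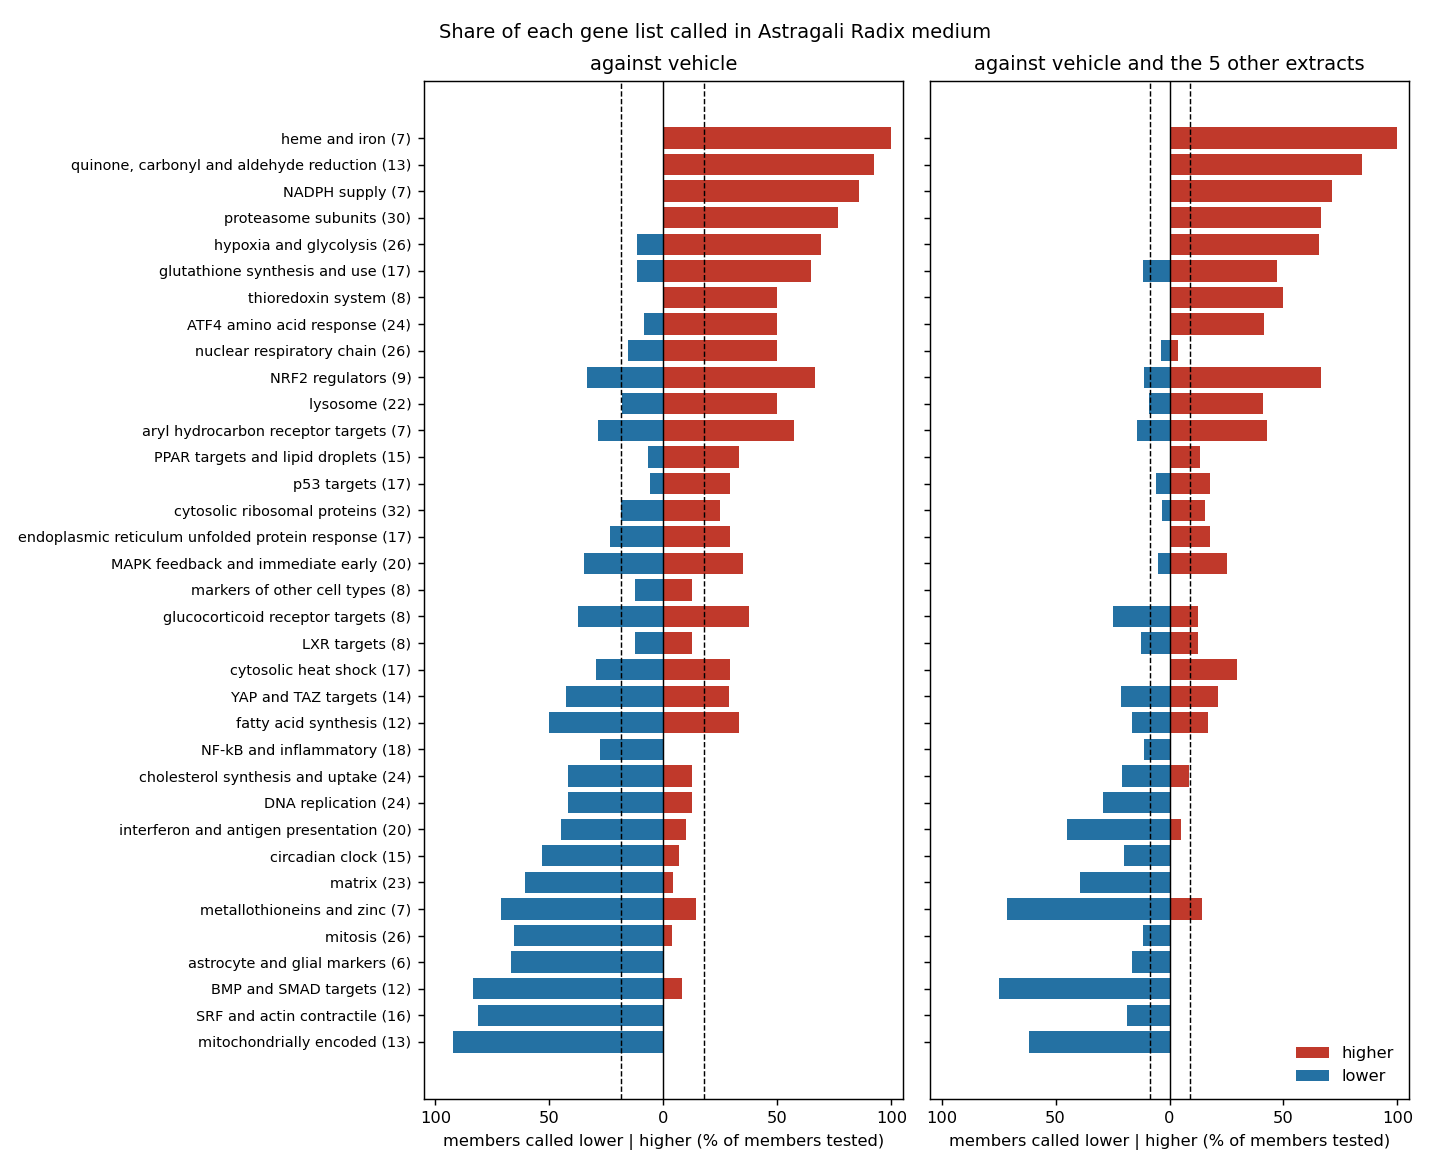
Share of the tested members of each gene list (number in brackets) called higher (red, right) or lower (blue, left) in Astragali Radix medium, against vehicle in the left panel and against both vehicle and the mean of the 5 other extracts in the right panel. Dashed lines mark the shares over all 16927 genes, 17.9% and 18.4% on the left and 8.82% and 8.38% on the right; the heme and iron list is at 7 of 7 in both panels.

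Metallothioneins fell. MT2A, the main metallothionein of most cells, lies on chromosome 16 at 56608199 to 56609497 and had 196, 171 and 169 CPM in Astragali Radix medium, against 509, 444 and 439 CPM in vehicle. The other extracts had 333 to 438 CPM, so every Astragali Radix library lay below all 18 others compared. The fall was 1.38 ± 0.07 on the log2 scale against vehicle (adjusted p = 8.1e-14) and 1.08 against the other extracts. MT1E had 6.87, 5.84 and 5.93 CPM in Astragali Radix medium, against 29.9, 27.3 and 24.6 CPM in vehicle (log2 -2.12 ± 0.09, adjusted p = 1.6e-15). MT1X had 7.93, 7.93 and 9.15 CPM in Astragali Radix medium, against 18.1, 16.6 and 20.5 CPM in vehicle (log2 -1.14 ± 0.09, adjusted p = 7.9e-10). MT1F, near the detection limit at 0.08 to 0.23 CPM in Astragali Radix medium and 0.58 to 0.73 in vehicle, was also called lower. These genes sit close together on chromosome 16 and are similar in sequence, so reads could be shared between them.

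The zinc transporters moved in opposite directions. SLC39A10, a zinc importer, had 70.3, 71.2 and 71.4 CPM in Astragali Radix medium, against 41.3, 44.9 and 40.7 CPM in vehicle, a rise of 0.75 ± 0.04 (adjusted p = 1.0e-13) that no other extract library reached. SLC30A1, the exporter at the cell surface, fell by 0.19, and MTF1 was not called against vehicle (0.06, adjusted p = 0.36). Of 7 tested members of the list, 1 was called higher and 5 lower against vehicle, and 1 and 5 in both comparisons, with a median of -1.14. On total counts 2 were called higher and 5 lower. MT1A, MT1G, MT1H, MT1M and SLC30A10 had 0 to 13 counts per group and were not tested.

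Targets of BMP signalling fell. ID1, an inhibitor of differentiation factors and a direct SMAD target, had 162, 157 and 148 CPM in Astragali Radix medium, against 221, 224 and 221 CPM in vehicle (log2 -0.51 ± 0.05, adjusted p = 7.8e-08). ID3 fell by 0.60, ID2 by 0.79, ID4 by 1.02 and ATOH8, a helix-loop-helix factor, by 0.96. The inhibitory SMADs, SMAD6 (-0.50) and SMAD7 (-0.36), fell as well. The ligand BMP4 fell by 0.20, and BAMBI, a decoy receptor, was called higher (0.26). Of 12 members, 10 were called lower and 1 higher against vehicle, 9 and 0 in both comparisons, and the median was -0.51. Over all genes tested, 18.4% were called lower against vehicle and 8.38% in both comparisons. The mean of the other extracts had 6 of the 12 lower and 1 higher than vehicle. Lower than vehicle and than each of the 5 extracts singly were 5, beside 4.01% of all genes.

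The 15 largest falls included genes of several kinds. DHRS3, which reduces retinaldehyde to retinol, had 4.29, 3.67 and 5.21 CPM in Astragali Radix medium, against 30.8, 28.8 and 28.6 CPM in vehicle (log2 -2.73 ± 0.08, adjusted p = 4.6e-18). The other extracts spread widely, with 16.0 CPM in the lowest library and 32.7 in the highest, and Cinnamomi Cortex was lowest among them at a mean of 16.6. CYP26B1, which degrades retinoic acid, had 13.8, 13.1 and 14.4 CPM in Astragali Radix medium, against 35.6, 33.1 and 35.3 CPM in vehicle and 30.5 to 43.1 in the other extracts. CYP24A1, which degrades active vitamin D, had 4.71, 5.84 and 5.93 CPM in Astragali Radix medium, against 15.3, 14.0 and 15.8 CPM in vehicle. For CYP26B1 the mean of the other extracts was not called against vehicle (0.09, adjusted p = 0.14). The log2 changes of these cytochromes in Astragali Radix medium were -1.33 ± 0.07 and -1.46 ± 0.08.

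Both plasminogen activators fell. PLAT, the tissue type, had 165, 163 and 174 CPM in Astragali Radix medium, against 399, 382 and 409.6 CPM in vehicle (log2 -1.25 ± 0.03, adjusted p = 1.5e-19). PLAU, urokinase, had 57.1, 54.7 and 60.1 CPM in Astragali Radix medium, against 132, 128 and 129 CPM in vehicle (log2 -1.17 ± 0.04, adjusted p = 4.3e-16). The other extracts lay between the groups in both genes, at 249 to 331 CPM for PLAT and 86.3 to 104 for PLAU. CCL2, a chemokine that draws monocytes, had 12.2, 12.8 and 13.5 CPM in Astragali Radix medium, against 41.6, 39.8 and 39.1 CPM in vehicle. Its log2 change was -1.65 against vehicle and -0.73 against the other extracts, whose own mean was 0.91 below vehicle on that scale. PADI2, which converts arginine in proteins to citrulline, fell by 1.77, ISLR2, a neuronal membrane protein, by 1.71, and HOXA3, a homeobox factor, by 1.51. LYPD1 (-1.15), SAMD11 (-1.15) and GNAO1 (-1.12), a G protein subunit, complete the 15 largest falls with MT2A, MT1E and MT1X.

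The 15 largest rises were HMOX1, AKR1C1, NMRAL2P, NQO1, SLC7A11, BEST1, AKR1C3, FTH1, AKR1B10, GCLM, FTL, ANGPTL4, SRXN1, GDF15 and OSGIN1. NMRAL2P is a transcribed pseudogene, with 6.22, 6.07 and 5.44 CPM in Astragali Radix medium, against 1.53, 1.81 and 1.63 CPM in vehicle. BEST1, a chloride channel, overlaps FTH1 on the opposite strand of chromosome 11, and without the strand setting of the counting its rise of 1.40 cannot be told apart from that of FTH1. ANGPTL4, a secreted inhibitor of lipoprotein lipase, had 43.2, 46.8 and 39.8 CPM in Astragali Radix medium, against 20.5, 20.8 and 20.8 CPM in vehicle (log2 1.06 ± 0.07, adjusted p = 1.9e-11). The other extracts had 13.8 to 21.3 CPM and their mean was lower than vehicle, so the change against them was larger, at 1.42. All 15 rises and all 15 falls were called against each of the 5 extracts. The mean of the other extracts was itself called above vehicle for 11 of the rises and below it for 12 of the falls. The rule that picked them required that no library of another extract overlap.

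**Figure D3:**
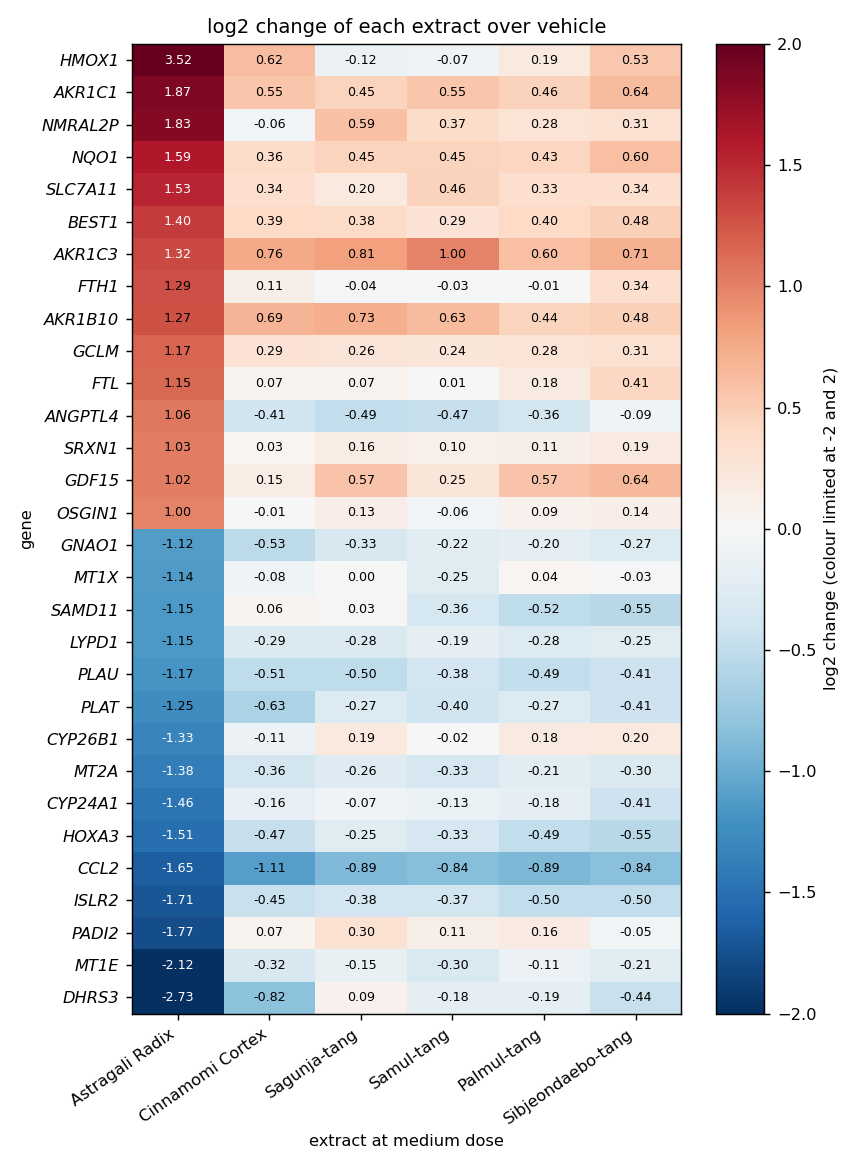
Colour and number give the log2 change over vehicle of each extract at medium dose (columns) for the 15 largest rises and 15 largest falls of Astragali Radix medium (rows); all columns share the 3 vehicle libraries. HMOX1 is at 3.52 in Astragali Radix and between -0.12 and 0.62 in the others.

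Sibjeondaebo-tang, the formula that contains Astragali Radix, and Cinnamomi Cortex had the highest HMOX1 levels among the other extracts, with means of 119 and 126 CPM. Palmul-tang had 93.6, Samul-tang 78.3 and Sagunja-tang 75.3 CPM. For FTH1, Sibjeondaebo-tang averaged 1574 CPM, against 1214 to 1349 in the remaining extracts. Astragali Radix medium differed from Sibjeondaebo-tang at 3318 genes (19.6%) and from the other extracts at 4329 to 4535 (25.6% to 26.8%). The doses differ, and how much Astragali Radix the formula's dose holds is not given in the sources used here.

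Genes of low oxygen and glycolysis were mostly higher. HK2, hexokinase, had 81.9, 84.3 and 81.7 CPM in Astragali Radix medium, against 50.7, 53.6 and 54.4 CPM in vehicle (log2 0.64 ± 0.04, adjusted p = 2.2e-11). ENO2 (0.63), EGLN3 (0.74), ADM (0.57), NDRG1 (0.50) and BNIP3 (0.48) rose too. Of 26 members 18 were called higher and 3 lower against vehicle, with a median of 0.20, and in both comparisons 17 were higher and 0 lower. VEGFA, GPI and GAPDH were the 3 called lower, by 0.08 to 0.09. None was called lower on total counts (21 higher), with all 57 libraries in the fit (14 higher), without Astragali Radix medium replicate 3 (18 higher) or without vehicle replicate 1 (16 higher). Without Astragali Radix medium replicate 2 or vehicle replicate 3, or with no filter on low counts, 1 was called lower.

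Targets of ATF4, the factor of the amino acid response, rose in part. GDF15, a stress cytokine, had 8.61, 7.23 and 6.09 CPM in Astragali Radix medium, against 3.33, 3.77 and 3.76 CPM in vehicle (log2 1.02 ± 0.14, adjusted p = 2.2e-06). TRIB3 (0.52), DDIT3 (0.42) and ASNS (0.39), asparagine synthetase, rose, and ATF4 itself was not called (-0.08, adjusted p = 0.13). The enzymes of serine synthesis PHGDH (-0.02) and PSPH (-0.04) were not called. Of 24 members 12 were called higher and 2 lower, 10 and 0 in both comparisons. The counts were 14 and 1 on total counts, 9 and 1 with all 57 libraries in the fit, and 12 and 1 without vehicle replicate 3.

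Heat shock and endoplasmic reticulum chaperone genes showed no common direction against vehicle. Of 17 cytosolic heat shock genes 5 were called higher and 5 lower, but 1 and 1 with all 57 libraries in the fit. On total counts 6 were higher and 3 lower, DESeq2 called 3 and 5, and leaving out Astragali Radix medium replicate 1 or vehicle replicate 2 gave 3 and 5. Without vehicle replicate 1 the counts were 5 and 3, and without vehicle replicate 3 they were 3 and 4. HSPB1, a small heat shock protein, fell by 0.57 against vehicle and was not called against the other extracts (-0.06, adjusted p = 0.33). HSPA1B, an inducible HSP70, rose by 0.30. In the unfolded protein response list 5 of 17 were called higher and 4 lower, but 7 and 2 on total counts and 2 and 1 with all 57 libraries in the fit. Without Astragali Radix medium replicate 2 the counts were 4 and 2, without vehicle replicate 1 they were 3 and 4, and without vehicle replicate 3 they were 5 and 2. HERPUD1 had 91.8, 88.9 and 90.2 CPM in Astragali Radix medium, 70.8 to 82.0 in the other extracts and 122, 124 and 131 in vehicle, so it was lower than vehicle (-0.48) and higher than the other extracts (0.24). Against the mean of the other extracts, 9 of 17 heat shock genes were called higher and 0 lower. In the unfolded protein response list 8 of 17 were higher and 0 lower there. Over all genes tested, that comparison called 17.6% higher and 16.5% lower. In both comparisons, 5 heat shock and 3 unfolded protein response genes were higher and 0 lower, beside 8.82% and 8.38% of all genes.

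Several lists with members called lower against vehicle had such members in the mean of the other extracts too, which shares the vehicle libraries. SRF and actin genes had 13 of 16 called lower and 0 higher in Astragali Radix medium, and 16 of 16 lower for the mean of the other extracts, with 3 lower in both comparisons. ACTA2, smooth muscle actin, was -0.37 in Astragali Radix medium and -0.42 in the other extracts. The fit of 57 libraries called 8 of the 16 lower. Mitosis genes had 17 of 26 called lower and 1 higher in Astragali Radix medium and 20 and 1 in the other extracts, with 3 lower in both comparisons and 9 lower in the fit of 57 libraries. The 1 call of a mitosis gene as higher ended in that fit and without vehicle replicate 3. MKI67 was -0.46 in Astragali Radix medium and -0.38 in the other extracts, and PLK1, a mitotic kinase, -0.43 and -0.48. KIF20A, a cytokinesis motor, was lower in both comparisons (-0.59 against vehicle, -0.25 against the other extracts).

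Transcripts of the mitochondrial genome were lower than vehicle in Astragali Radix medium and in the other extracts. Of 13 protein-coding genes, 12 were called lower in Astragali Radix medium and 13 in the mean of the other extracts, and 8 were lower in both comparisons. MT-CO3 had 3736, 3786 and 3967 CPM in Astragali Radix medium, 5067 to 6015 in the other extracts and 8388, 7514 and 7480 in vehicle (log2 -1.03 ± 0.05 against vehicle, -0.56 against the other extracts). MT-ND4L, the exception against vehicle, was at -0.11 (adjusted p = 0.38). MT-ATP8 overlaps MT-ATP6, and MT-ND6 lies opposite other transcripts, so their counts are uncertain. Among 26 nuclear genes of the respiratory chain, 13 were called higher and 4 lower against vehicle, 1 and 1 in both comparisons, and 5 and 0 in the fit of 57 libraries. On total counts 20 were higher and 0 lower. The counts were 9 and 2 without Astragali Radix medium replicate 2, 13 and 2 without Astragali Radix medium replicate 3, and 10 and 2 without vehicle replicate 1.

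Against vehicle, DNA replication genes were split by scaling: 3 of 24 were called higher and 10 lower, but 6 higher and 2 lower on total counts, and 0 and 1 in the fit of 57 libraries. The counts were 1 and 5 without Astragali Radix medium replicate 2, 1 and 8 without vehicle replicate 1, 0 and 7 without vehicle replicate 3, and 3 and 6 with no filter on low counts. Against the mean of the other extracts, 1 of the 24 was called higher and 12 lower, beside 17.6% and 16.5% of all genes. In both comparisons 0 were higher and 7 lower, beside 8.82% and 8.38% of all genes. The mean of the other extracts had 8 higher and 2 lower than vehicle. Among matrix genes, 14 of 23 were called lower and 1 higher, and 9 and 0 in both comparisons, but 3 and 0 in the fit of 57 libraries. COL5A1, a fibrillar collagen chain, had 1430.5, 1365 and 1463 CPM in Astragali Radix medium, against 2204, 2157 and 2259 CPM in vehicle (log2 -0.64 ± 0.03, adjusted p = 4.0e-13). COL1A1 was at -0.43 and COL6A1 at -0.34, and neither was called with all 57 libraries in the fit (adjusted p = 0.16 and 0.12).

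YAP and TAZ targets divided. CCN1, a matrix-bound growth regulator, had 562, 564 and 579 CPM in Astragali Radix medium, against 355, 349 and 352 CPM in vehicle (log2 0.69 ± 0.04, adjusted p = 7.3e-13). Its relative CCN2 had 106, 101 and 102 CPM in Astragali Radix medium, against 185, 190 and 180 CPM in vehicle (log2 -0.84 ± 0.05, adjusted p = 1.0e-11). F3, tissue factor, rose by 0.42 and ANKRD1 fell by 0.71. In all, 4 of 14 were called higher and 6 lower, but 4 and 3 with all 57 libraries in the fit and 6 and 4 on total counts.

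Lipid genes showed no common direction. PLIN2, which coats lipid droplets, had 101, 101 and 89.4 CPM in Astragali Radix medium, against 56.6, 56.1 and 51.1 CPM in vehicle (log2 0.83 ± 0.06, adjusted p = 6.9e-11), and no library of the other extracts exceeded 64.0. Of 15 PPAR and lipid droplet genes tested, 5 were called higher and 1 lower, but 2 and 1 with all 57 libraries in the fit. Cholesterol genes had 3 of 24 called higher and 10 lower in Astragali Radix medium, 1 and 12 in the other extracts. For Astragali Radix medium the counts were 0 and 5 with all 57 libraries in the fit, 5 and 8 on total counts, and 1 and 9 without Astragali Radix medium replicate 2. INSIG1, which holds back sterol synthesis, was not called against vehicle (0.00, adjusted p = 0.98) and 0.47 higher than the other extracts. Among fatty acid synthesis genes 4 of 12 were called higher and 6 lower, with FADS2 at -0.52. The counts were 1 and 3 with all 57 libraries in the fit, and 5 and 4 on total counts. LXR targets had 1 higher and 1 lower of 8, 1 and 0 with all 57 libraries in the fit, and 1 and 2 without Astragali Radix medium replicate 1. The 7 tested targets of the aryl hydrocarbon receptor had 4 called higher and 2 lower, but 4 and 0 on total counts and 3 and 0 with all 57 libraries in the fit. The counts were 2 and 2 without Astragali Radix medium replicate 1, vehicle replicate 1 or vehicle replicate 3, and 3 and 1 without Astragali Radix medium replicate 2. AHR itself rose by 0.31, and CYP1B1 was called lower by 0.11, a call that ended without Astragali Radix medium replicate 2 (adjusted p = 0.10).

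Inflammatory genes were lower or not called against vehicle. Of 18 NF-kB targets tested, 0 were called higher and 5 lower in Astragali Radix medium, and 1 and 11 for the mean of the other extracts. Over all genes tested, 17.9% were called higher and 18.4% lower in Astragali Radix medium against vehicle. Against the mean of the other extracts, 9 of the 18 were higher and 4 lower, beside 17.6% and 16.5% of all genes. In both comparisons 0 were higher and 2 lower. PTGS2, the inducible cyclooxygenase, had 49.7, 50.7 and 59.5 CPM in Astragali Radix medium, 45.0 to 68.2 in the other extracts and 89.5, 96.0 and 87.1 in vehicle. LIF, a cytokine, fell by 0.47 against vehicle and was 0.17 higher than the other extracts. CXCL8, a neutrophil chemokine, was not called against vehicle (0.05, adjusted p = 0.71) and was 0.74 higher than the other extracts. Of 20 MAPK feedback and immediate early genes 7 were called higher and 7 lower, but 10 and 6 on total counts and 5 and 6 with all 57 libraries in the fit. JUN rose by 0.30 and JUNB fell by 0.54.

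**Figure D4:**
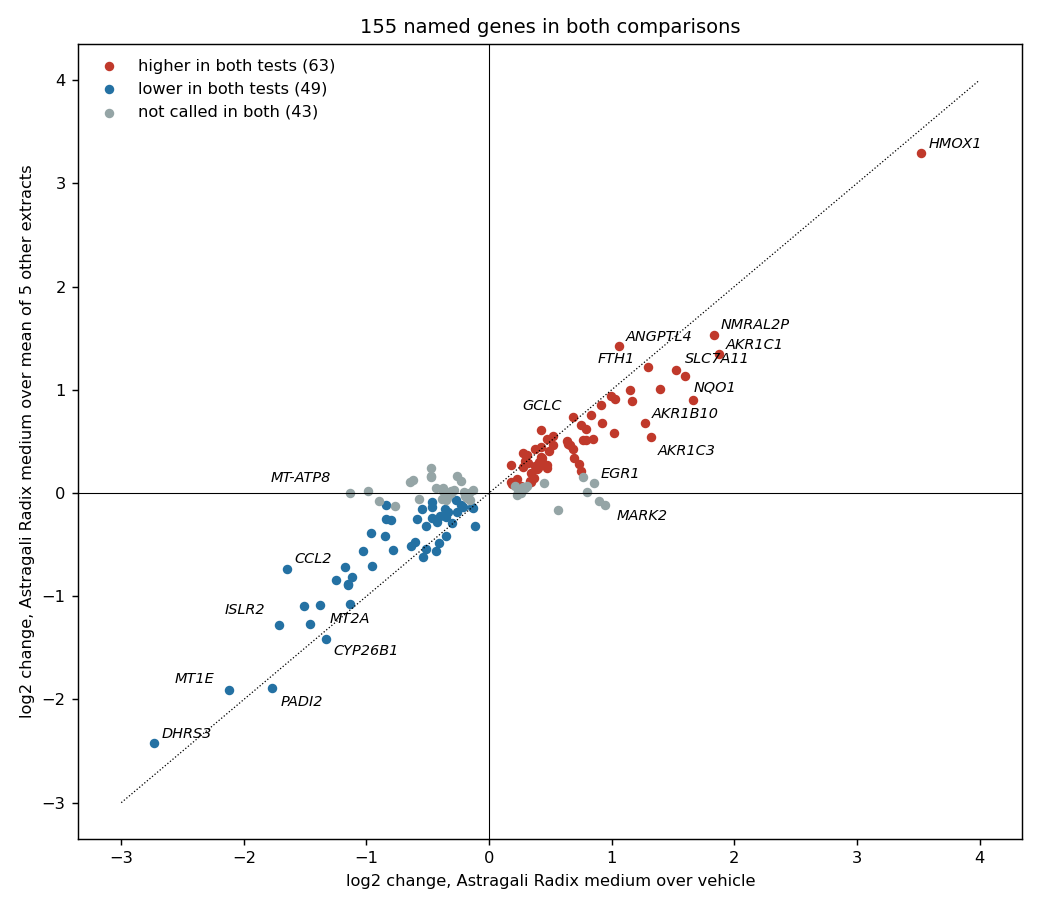
Each point is 1 of the 155 named genes, with the log2 change of Astragali Radix medium over vehicle on the x axis and over the mean of the 5 other extracts on the y axis; the dotted line marks equal changes. Of these, 63 were higher in both tests, 49 lower in both and 43 (grey) not called in both. The genes were picked mostly by these same comparisons, so this split is not a result about them. Over all genes tested, 8.82% were higher and 8.38% lower in both. The Astragali Radix libraries enter both axes.

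Some genes were called against vehicle in Astragali Radix medium and in the mean of the other extracts, and not between them; the comparisons share the vehicle libraries. EGR1, an immediate early factor, had 39.0, 40.3 and 38.7 CPM in Astragali Radix medium, 30.1 to 44.2 in the other extracts and 23.5, 21.9 and 19.7 in vehicle. MARK2, a polarity kinase, had 24.7, 36.7 and 32.6 CPM in Astragali Radix medium, 28.3 to 38.9 in the other extracts and 17.7, 14.1 and 16.6 in vehicle. ZSWIM4 had 13.9, 12.5 and 13.4 CPM in Astragali Radix medium, 10.6 to 13.9 in the other extracts and 21.2, 19.8 and 21.2 in vehicle. In each, Astragali Radix libraries stood apart from vehicle and overlapped the other extracts. MTCP1 (0.90 in Astragali Radix medium, 0.98 in the mean of the other extracts), MVP-DT (0.80 and 0.79) and JMJD7-PLA2G4B (0.56 and 0.73) were the remaining rises picked by this rule. The falls were MT-ATP8 (-1.13 and -1.13), KRTAP2-3 (-0.99 and -1.01), MT-ND6 (-0.90 and -0.82) and the pseudogene FKBP9P1 (-0.62 and -0.74). MTCP1, MVP-DT and JMJD7-PLA2G4B overlap or adjoin other genes and KRTAP2-3 has close copies, so their counts are uncertain. A further 343 genes (2.03%) were called in opposite directions against vehicle and against the other extracts, among them MAFF, HERPUD1 and LIF above.

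The levels at 44 µg/mL can be set beside those at 8.8 and 220 µg/mL, as a description only. The low-dose libraries stood apart from one another: their deviations from the group mean had SDs of 0.29 to 0.41 on the log2 scale, against 0.06 to 0.07 for the medium dose and 0.07 to 0.11 for the high dose. HMOX1 averaged 82.0 CPM in vehicle, 195 at the low dose, 943 at the medium dose and 6249 at the high dose. At the low dose its libraries had 214, 218 and 152 CPM, all above vehicle. FTH1 had 2215, 1904 and 1501 CPM at the low dose and 8716, 8851 and 7933 at the high dose. GCLC had 33.3, 25.6 and 35.9 CPM at the low dose, which overlaps vehicle, and 271, 278 and 300 at the high dose. NQO1 had 258, 220 and 191 CPM at the low dose and 369, 403 and 388 at the high dose, which overlaps the medium dose. The high-dose libraries had scaling (TMM) factors of 0.767 to 0.800, against 1.03 to 1.04 for the medium dose, so comparisons between these doses depend on the scaling. The high-dose mean was above the medium-dose mean for 15 of the 15 largest rises in these scaled counts and for 13 of 15 on total counts. On total counts NQO1 averaged 386 per 1e6 at the medium dose and 301 at the high dose, and AKR1B10 7.94 and 6.02. In the scaled counts the low-dose mean lay between vehicle and medium for 14 of them.

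The falls did not all deepen with dose. MT2A had 478, 478 and 309 CPM at the low dose and 166, 168 and 144 at the high dose, whose highest values are close to the 169 to 196 of the medium dose. MT1E had 24.1, 18.1 and 20.2 CPM at the low dose and 4.13, 4.89 and 2.89 at the high dose. DHRS3 was lowest at the medium dose, with 12.7, 20.5 and 10.1 CPM at the low dose and between 9.88 and 11.02 at the high dose. ID1 varied from 213 to 613 CPM at the low dose, on both sides of vehicle, and had 24.7, 24.8 and 27.3 at the high dose. Of the 15 largest falls, 13 had a lower mean at the high than at the medium dose, and 14 on total counts.

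**Figure D5:**
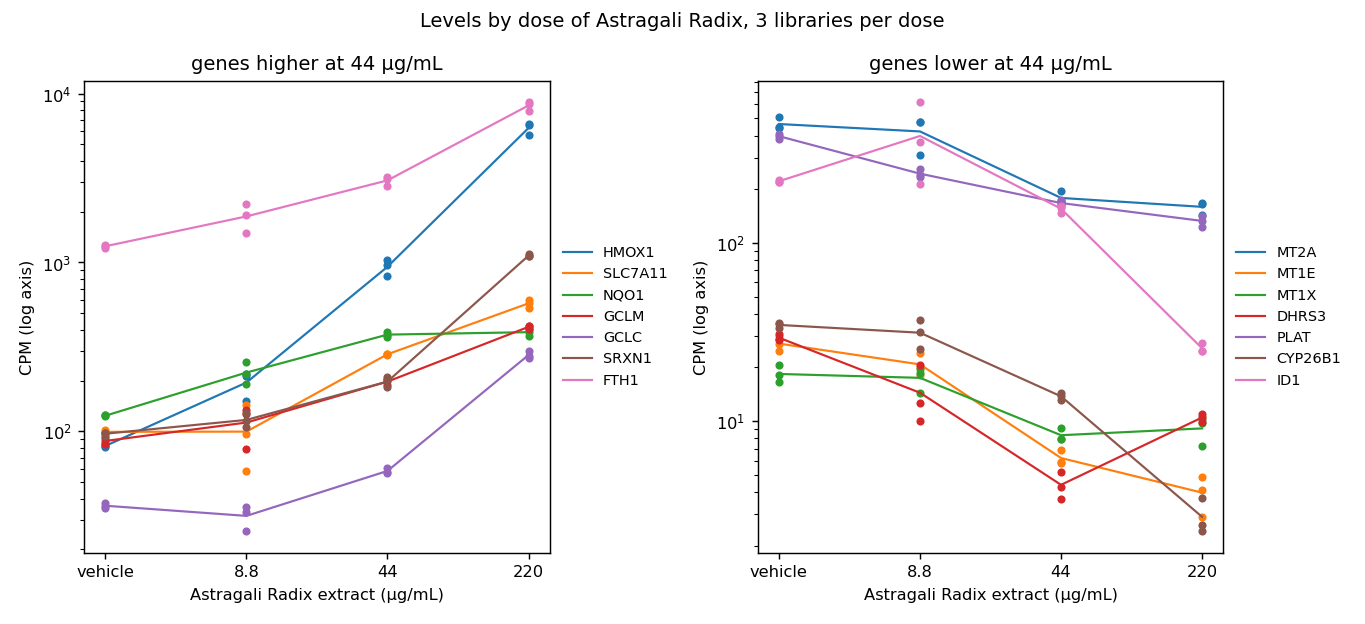
Library-scaled counts (CPM, log axis) of 7 genes higher (left) and 7 lower (right) at 44 µg/mL, in vehicle and at 8.8, 44 and 220 µg/mL of Astragali Radix; points are libraries and lines join the means of 3. HMOX1 runs over 82.0, 195, 943 and 6249 CPM, while DHRS3 is lowest at 44 µg/mL.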

How the data were processed

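Messenger RNA was sequenced with the MGIEasy RNA Directional kit as 100 bp paired-end reads, per the labels' protocols. The submitters' processing notes name, with hg38 as the build, STAR 2.7.3a, RSEM 1.3.3, FastQC 0.11.9 and Trim Galore 0.6.5. The annotation release and the strand setting of the counting are not given in the sources used here. The authors deposited RSEM expected counts, which are estimates that share out reads between similar genes, as a table with 60675 gene rows and 279 columns, of which 60 matched samples by their labels and the remaining 219 were not used. Of the values 90.8% were whole (tolerance 1e-09), and all were rounded. Symbols were assigned to 56558 genes, and GENCODE v29 on GRCh38 gave the positions. Where identifiers shared a symbol, the one with the largest total kept it, and the remaining 1145 identifiers went without it.

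The 21 libraries of Astragali Radix medium, the 5 other extracts at medium dose and vehicle were fitted together with edgeR 4.0.16 in R 4.3.3 (limma 3.58.1, quasi-likelihood F test, 1 mean per group). TMM factors came from 27 libraries, adding the low and high doses of Astragali Radix, and filterByExpr kept 16927 genes. The low dose stayed out of the fit because its libraries stand apart. Calls used a Benjamini-Hochberg adjusted p below 0.05 over all genes tested, with no minimum fold. Standard errors (SE) were taken as the absolute log2 change over the root of F, and CPM are counts scaled to the TMM-adjusted library total. The common dispersion was 0.00136. No 2 libraries held identical values.

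The 36 gene lists (587 genes) and the genes described were chosen with earlier results of these data known. Named genes are HMOX1, MT2A and GCLC; the 15 largest rises and falls among called genes of at least 5 CPM, with names that are not clone-based, whose Astragali Radix libraries do not overlap any vehicle or other-extract library (811 rises and 608 falls met this); up to 4 members with the smallest adjusted p of each list with at least 3 called; and, among genes called against vehicle in Astragali Radix medium and in the mean of the others but not between them, the 5 largest changes in each direction. Further list members are given with their values, which were seen before they were picked. Promoter sequences are RefSeq's on GRCh38.p14. Alternatives were other scaling, filters, DESeq2 1.42.0, a minimum of 1.5-fold, a replicate block, other sets of libraries in the fit, and leaving out each library. Samul-tang's herb Rehmanniae Radix Preparata, with single libraries, was not used. Intervals and SEs cover the spread between libraries only.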

Additional observations from a re-analysis of the deposited data

How the results depend on the processing

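The counts of genes called against vehicle (6146), against the mean of the other extracts (5760), in both comparisons (2912), against vehicle and each extract singly (1321), and for the mean of the other extracts against vehicle (6505) are taken here in that order. With a minimum of 1.5-fold they became 793, 575, 454, 260 and 417. With all 57 replicated libraries in 1 fit, the uneven low-dose libraries among them, they became 2924, 2760, 1225, 463 and 3473, and 2909 of the 2924 were also called in the fit of 21 libraries; the cause of the drop was not tested. Leaving out 1 library at a time gave 5095 to 6220, 4373 to 5840, 2206 to 3000, 1011 to 1342 and 5072 to 6526. DESeq2 called 5307 genes against vehicle and edgeR's other scaling by relative log expression called 6145. Total counts with no scaling factor gave 6750, of which 4594 were higher and 2156 lower, beside 3030 and 3116, and 5700 higher and 1871 lower for the other extracts against vehicle; the median of all genes moved to 0.05 on the log2 scale. The replicate block called 6269. Replicate numbers were not taken to pair libraries in the main fit, although each of the 6 libraries correlated best with its own number. Deviations of same-numbered Astragali Radix and vehicle libraries correlated at 0.05 to 0.11, those of other numbers at -0.10 to 0.04. Whether libraries of 1 number share an effect was not tested. Every other alternative kept these counts within 1.5 times. Of the 155 named genes none changed direction; 17 lost their call with 57 libraries, CD44, AHRR, MCM4, CYP1B1 and MCM7 on total counts, and CYP1B1 without Astragali Radix medium replicate 2. ALDH3A1 dropped out under a filter of 1 CPM. Across 16817 genes the change against vehicle had a Spearman correlation of -0.18 with GC content and 0.04 with length, as a description of genes that share their libraries.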

Other observations

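Lysosomal genes had 11 of 22 called higher and 4 lower against vehicle, 9 and 2 in both comparisons (edgeR), and 5 and 1 with all 57 libraries in the fit. On total counts 15 were higher and 1 lower, and no filter on low counts gave 11 and 2. The counts were 11 and 2 without Astragali Radix medium replicate 3 or vehicle replicate 3, 9 and 2 without vehicle replicate 1, and 8 and 2 without vehicle replicate 2. CTSL, a lysosomal protease, had 216, 211 and 207 CPM in Astragali Radix medium, against 158, 163 and 153 CPM in vehicle (log2 0.42 ± 0.04, adjusted p = 7.4e-09). GLA, which trims galactose from lipids, rose by 0.43 and ATP6V1B2, a subunit of the proton pump, by 0.40. Interferon and antigen presentation genes had 9 of 20 called lower and 2 higher, 9 and 1 in both comparisons, and 3 and 1 with all 57 libraries. IFITM3, an antiviral membrane protein, had 289, 288 and 263 CPM in Astragali Radix medium, against 411, 369 and 383 CPM in vehicle (log2 -0.47 ± 0.04, adjusted p = 6.0e-09). B2M, the light chain of MHC class I, fell by 0.23.

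Of 17 p53 targets tested, 5 were called higher and 1 lower (4 and 0 with all 57 libraries), with GADD45A at 0.49 and PHLDA3 at 0.43 in the lead. Clock genes had 8 of 15 called lower and 1 higher (8 and 2 on total counts). NR1D1, a clock repressor, had 64.9, 58.4 and 59.6 CPM in Astragali Radix medium, 48.8 to 63.0 in the other extracts and 90.3, 85.6 and 79.1 in vehicle. Glucocorticoid receptor targets had 3 of 8 called higher and 3 lower. KLF9, a zinc finger factor, fell by 0.54 against vehicle and by 0.62 against the other extracts. Cytosolic ribosomal protein genes had 8 of 32 called higher and 6 lower, and 12 and 2 on total counts and 2 and 2 with all 57 libraries in the fit. Over all genes tested, 17.9% were called higher and 18.4% lower against vehicle. Whether any list in this paragraph departs from those shares was not tested. The 4 glial markers that were called were lower against vehicle by 0.13 (CD44), 0.23 (VIM), 0.31 (SOX9) and 0.41 (SLC1A3), and SLC1A3, a glutamate transporter, was also lower than in the other extracts. The call of CD44 ended on total counts (edgeR adjusted p = 0.10) and with all 57 libraries in the fit (adjusted p = 0.16).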
